A study of Mus musculus with 3 samples.

Results

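Accessible chromatin regions that were open before NIPBL depletion and after 6 h of it, and had no accessible region in their place at 72 h, were described in a mouse myeloid progenitor line. They were chosen by presence and absence in 3 lists of accessible regions: a region of the 0 h list, on chromosomes 1 to 19 or X and at least 200 bp long, was a member when it shared 1 bp or more with a 6 h region and none with a 72 h region. This held for 2832 of 48043 such regions of the 0 h list (5.89%, exact Clopper-Pearson 95% interval 5.69 to 6.11), which in turn are the longer ones among 182187 regions on these chromosomes. Another 44889 (93.4%) were present at all 3 times and are called kept regions. A further 215 were found at 0 h alone, and 107 at 0 h and 72 h but not at 6 h.

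Chromatin was profiled by ATAC-seq, which finds open DNA as the places a transposase can reach, in ECOMG cells of the genotype FKBP12F36V_NIPBL. The libraries were cells with estradiol at 0 h without dTAG, cells with estradiol and dTAG for 6 h, and cells with estradiol and dTAG for 72 h, with 1 library for each. All 3 carried the degron-tagged NIPBL and grew with GM-CSF and estradiol, and no library without dTAG at 6 h or 72 h was analysed here, so dTAG, time in culture and the single library cannot be told apart. Every difference below has therefore no replicate check and no test across conditions, and the intervals of shares cover counting error only. In a bulk library, fewer cells with an open region and less open chromatin in each cell cannot be told apart either.

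NIPBL is the factor that, with its partner MAU2, lets cohesin extrude chromatin loops, which bring distant elements and promoters together between CTCF-bound boundaries. dTAG molecules join an FKBP12F36V-tagged protein to a ubiquitin ligase, after which the protein is degraded. Open regions in myeloid progenitors are mainly promoters and enhancers, and enhancers of this lineage are bound by factors such as PU.1, RUNX1 and C/EBP proteins.

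Sequence was available for promoter windows only, so the values below describe windows that a member overlapped and not members in general. Only 15.7% of members lay within 1 kb of a gene end. An overlap of 1 bp was enough, and bases of the window outside the member were counted too. Of 21020 windows of 300 bp around RefSeq start sites of protein-coding genes (250 bases before and 50 after the start, GRCm38.p6, the assembly of mm10), 107 windows of 99 genes overlapped a member and no kept region, and in 79 the start site itself lay inside the member. The 250 bases before the start are given for 4 of them, all on the plus strand, with the bases inside the member in capitals: Hspg2 (chr4:137468553-137468802), the highest member at a promoter, Kit (chr5:75574737-75574986), the receptor of stem cell factor and a progenitor gene, and Cdh15 (chr8:122848124-122848373) and Cpm (chr10:117629250-117629499), whose promoter members were over 10 kb from any 72 h region.
Hspg2: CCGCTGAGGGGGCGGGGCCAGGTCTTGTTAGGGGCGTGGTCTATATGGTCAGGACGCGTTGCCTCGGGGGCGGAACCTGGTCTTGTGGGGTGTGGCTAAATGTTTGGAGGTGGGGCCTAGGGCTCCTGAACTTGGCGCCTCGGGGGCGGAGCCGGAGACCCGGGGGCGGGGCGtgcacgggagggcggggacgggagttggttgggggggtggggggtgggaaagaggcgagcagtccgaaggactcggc
Kit: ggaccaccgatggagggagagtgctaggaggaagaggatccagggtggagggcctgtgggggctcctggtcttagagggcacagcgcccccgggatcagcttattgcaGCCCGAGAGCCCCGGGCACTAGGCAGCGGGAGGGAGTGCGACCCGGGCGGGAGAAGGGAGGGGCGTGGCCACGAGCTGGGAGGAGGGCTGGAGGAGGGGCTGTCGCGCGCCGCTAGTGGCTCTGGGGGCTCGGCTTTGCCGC
Cdh15: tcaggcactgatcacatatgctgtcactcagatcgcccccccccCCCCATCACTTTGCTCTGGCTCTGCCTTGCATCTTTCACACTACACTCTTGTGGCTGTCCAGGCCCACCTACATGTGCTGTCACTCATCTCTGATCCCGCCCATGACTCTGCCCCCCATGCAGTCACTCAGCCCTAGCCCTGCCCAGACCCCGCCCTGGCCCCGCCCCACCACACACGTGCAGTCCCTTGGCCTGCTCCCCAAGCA
Cpm: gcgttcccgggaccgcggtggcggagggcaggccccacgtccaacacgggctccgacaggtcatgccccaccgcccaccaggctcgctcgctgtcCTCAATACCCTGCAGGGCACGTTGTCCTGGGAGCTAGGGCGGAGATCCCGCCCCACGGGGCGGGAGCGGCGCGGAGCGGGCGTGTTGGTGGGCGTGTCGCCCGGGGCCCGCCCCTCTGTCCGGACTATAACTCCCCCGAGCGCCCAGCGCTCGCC
These stretches were rich in G and C, at 70.0% for Hspg2, 70.8% for Kit, 62.0% for Cdh15 and 74.4% for Cpm. They held 20, 17, 5 and 30 CpG dinucleotides in that order.

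Over all 107 windows the median GC content was 62.7%, against 62.0% in the 10094 windows that overlapped a kept region and 56.7% in all windows. The median number of CpGs per window was 17, against 22 in kept windows and 13 in all windows. Letters of binding motifs were then counted on both strands in the 300 bp windows. The ETS letters GAGGAA, part of the PU.1 motif, occurred in 26.2% of the member windows (18.1 to 35.6), against 25.8% of kept windows and 27.2% of all windows. The RUNX letters TGTGGT occurred in 16.8% (10.3 to 25.3), against 11.9% and 14.7%. The C/EBP letters TTNCNNAA occurred in 29.0%, against 29.1% and 37.4%, and the AP-1 letters TGANTCA in 3.74%, against 4.21% and 7.04%. The GATA letters AGATAA occurred in 2.80%, against 5.16% and 9.69%, and the E-box letters CANNTG, which can overlap other motifs, in 70.1%, against 61.0% and 69.0%. None of the 107 windows held the CTCF core, the longer ETS form AGAGGAAGT (which contains GAGGAA) or the C/EBP palindrome TTGCGCAA (which TTNCNNAA also matches), an interval reaching up to 3.39%. In kept windows these 3 occurred in 2.70%, 1.17% and 0.347%. The intervals of the member windows contain the kept values for all of these motifs. A match is a run of letters and does not show binding.

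Members were mostly low and short. Their fold, the deposited enrichment of a region's summit over the caller's background, had a median of 8.32 at 0 h (quartiles 6.05 and 12.1), against 28.7 in kept regions (15.9 and 55.2). At 6 h the highest overlapping region had a median fold of 8.29 (6.03 and 12.8), against 33.2 at kept regions. Median length was 236 bp, against 300 bp. These values belong to the choice of members and are a description. Each list was scaled by its own background, with 1 step of the fold grid at 0.756, 0.754 and 0.781 at 0, 6 and 72 h and a lowest listed fold of 3.02, 3.01 and 3.12, so a region without a 72 h counterpart can still have signal below the lowest height. Of regions with a 0 h fold from 3 to 5, 33.7% were members (30.2 to 37.3). That share was 10.8% at folds from 10 to 15, 1.93% from 20 to 30, 0.462% from 30 to 50 and 0.0453% from 50 to 100. At the length limit, 491 of 3980 regions of 200 to 209 bp were members (12.3%), and 590 of 4587 regions of 190 to 199 bp had the same pattern (12.9%).

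**Figure D1:**
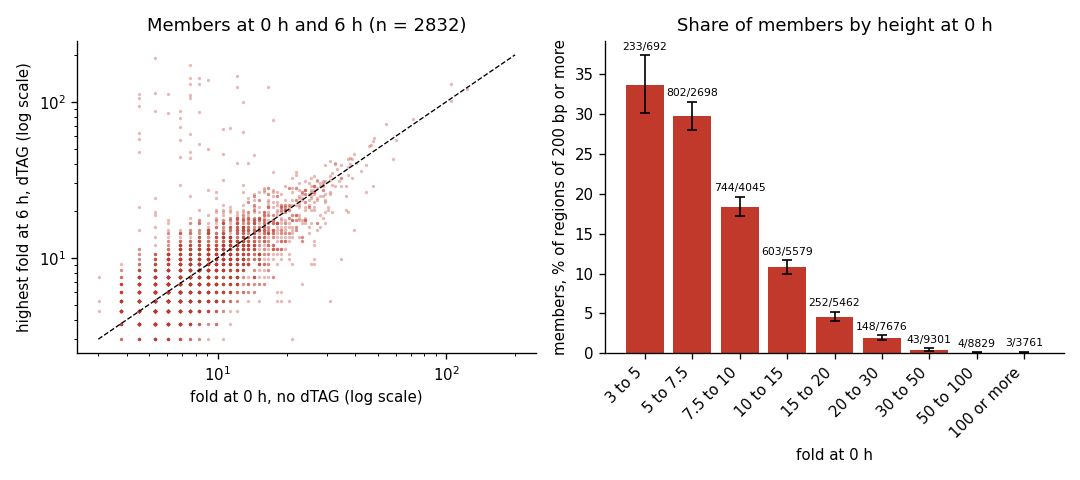
Left, fold of each of the 2832 members at 0 h (x axis, log scale) against the highest fold of the overlapping 6 h regions (y axis, log scale), with a dashed line of equal values; most points lie along the line, and 91 have a 6 h fold over 2 times the 0 h fold. Right, share of members among regions of at least 200 bp by 0 h fold, with exact 95% intervals and the counts above the bars, from 33.7% at folds of 3 to 5 to 0.0453% at folds of 50 to 100.

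Nearly all higher 0 h regions were listed at 6 h, whether or not a 72 h region overlapped them. Without a limit on fold, 3047 regions of at least 200 bp had no 72 h region, and 2832 of them (92.9%) were present at 6 h, against 99.3% of all 48043. At a 0 h fold of at least 10 the numbers were 1053 of 1054, against 40607 of all 40608, and at a fold of at least 20 they were 198 of 198, against 29567 of all 29567. The 6 h regions stood in the same place: the 6 h summit lay inside the member in 2702 cases (95.4%), and 6 h regions covered a median of 77.1% of a member's length. Of the members, 786 (27.8%) had a fold of at least 10 at both times, and 130 (4.59%) a fold of at least 20 at both. In 91 members (3.21%) the matched 6 h region itself, reaching beyond the member, overlapped a 72 h region.

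Many members lay close to chromatin that was still open at 72 h. The median distance to the nearest 72 h region was 3274.5 bp. It was at most 250 bp for 452 members (16.0%) and at most 1 kb for 958 (33.8%), and over 10 kb for 840 (29.7%) and over 100 kb for 148 (5.23%). The windows of 10 kb on each side of members held on average 5.51, 5.38 and 3.20 regions at 0, 6 and 72 h. By the rule, these counts include the member at 0 h and its match at 6 h, but no counterpart at 72 h. Around kept regions these means were 6.60, 6.46 and 6.21, with the region itself counted at each time. Part of this contrast is therefore fixed by the choice of members. A region found at 72 h only lay within 10 kb of 29.6% of members (27.9 to 31.3), against 57.6% of kept regions (57.1 to 58.0).

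**Figure D2:**
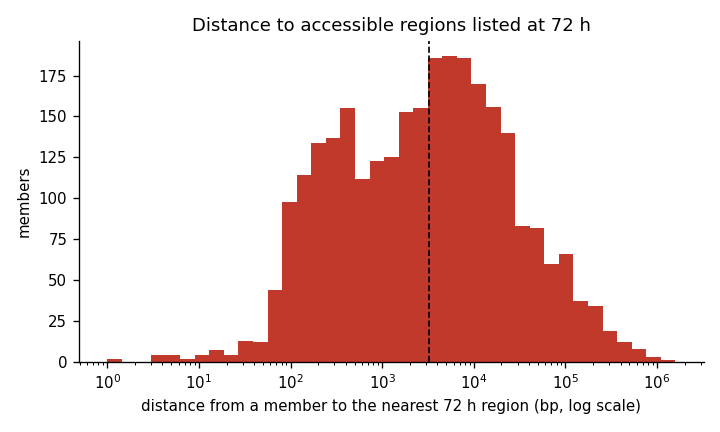
Number of members (y axis) by distance to the nearest region of the 72 h list (x axis, bp, log scale). The dashed line marks the median of 3274.5 bp, and 452 members lie within 250 bp while 148 lie over 100 kb away.

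Members stood farther from genes than kept regions did. No farther than 1 kb from the end of a protein-coding gene lay 15.7% of members (14.4 to 17.1), against 30.7% of kept regions (30.3 to 31.1). Over 100 kb from any gene end lay 367 members (interval 11.7% to 14.3%), against 2425 kept regions (5.19% to 5.62%). Members lay inside a gene span in 50.6% of cases (48.7 to 52.4), against 64.5% (64.0 to 64.9). The genome was divided into bins of 1 Mb, in 3 equal parts by the number of protein-coding genes. The gene-poor part held 11.4% of members (10.3 to 12.7), against 5.32% of kept regions, and the gene-dense part 60.5%, against 69.5%.

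Kept regions near gene ends made up 22.8% of those with 0 h folds from 3 to 5 and 75.6% of those with folds of 100 or more. The share of members was therefore also taken within ranges of the 0 h fold. At folds from 10 to 20, 14.1% of regions in gene-poor bins were members (11.7 to 16.7), against 8.68% in the middle part (7.71 to 9.73) and 6.65% in gene-dense bins (6.09 to 7.26). At folds from 5 to 10 the shares were 37.6%, 22.4% and 21.6%, and at folds from 20 to 50 they were 2.41% (1.55 to 3.57), 1.10% and 1.03% (0.852 to 1.23). In these 3 ranges the gene-poor share was the highest, with an interval apart from that of gene-dense bins. At folds of 50 or more it was 0 of 461 regions (up to 0.797%), against 0.0722% in the middle part and 0.0534% in gene-dense bins, with intervals that overlap. Near gene ends 5.31% of regions with folds from 10 to 20 were members (4.35 to 6.41), against 8.26% farther away (7.70 to 8.84). At folds from 20 to 50 these were 0.779% (0.523 to 1.12) and 1.22% (1.04 to 1.42), with intervals that overlap. At folds from 3 to 5, 21.9% of members (16.8 to 27.8) lay near gene ends, against 22.8% of kept regions. From 20 to 30 these were 16.9% (11.2 to 23.9) and 17.3%. In the ranges between 7.5 and 20 the member share was lower, with separate intervals. From 7.5 to 10 it was 14.4% (11.9 to 17.1), against 22.3% of kept regions (20.9 to 23.7). With a 72 h region within 1 kb also counted as presence, 1874 members were left. Of these, 7.63% were near gene ends and 14.8% in gene-poor bins, against 30.7% and 5.31% of kept regions. This setting removes members beside 72 h regions, and kept regions were often near gene ends. These shares are therefore partly fixed by the setting and are no separate check of the contrast.

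**Figure D3:**
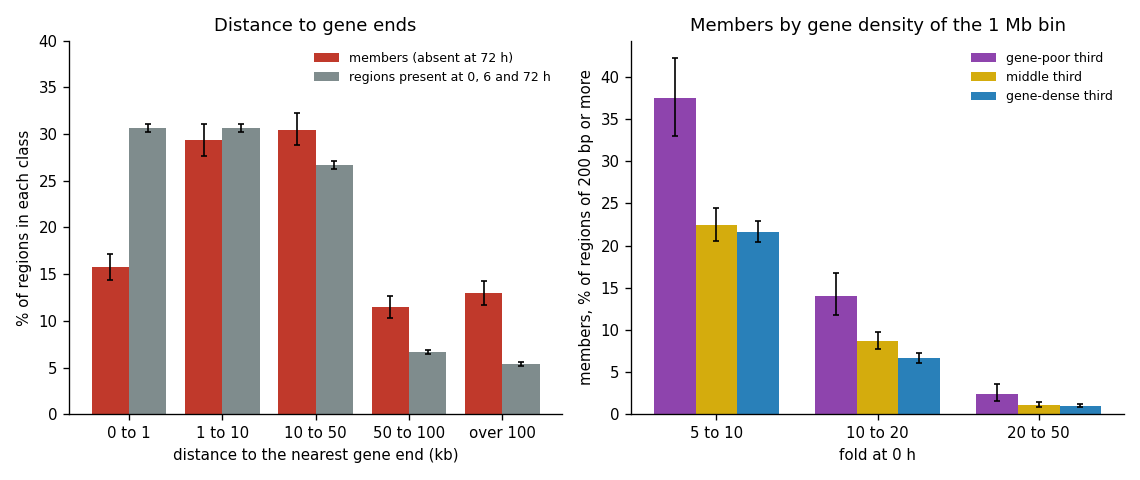
Left, percent of members (red) and of kept regions (grey) by distance to the nearest protein-coding gene end in kb, with exact 95% intervals; 15.7% of members and 30.7% of kept regions lie within 1 kb. Right, percent of regions that are members by 0 h fold in gene-poor, middle and gene-dense 1 Mb bins, with 14.1%, 8.68% and 6.65% at folds of 10 to 20.

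Members were spread over all chromosomes, with shares from 4.97% on chromosome 2 (4.26 to 5.76) to 7.19% on chromosome 13 (6.12 to 8.39). The next region of at least 200 bp on either side was also a member for 19.7% of members (18.3 to 21.2), against 10.7% of kept regions (10.4 to 11.0). There were 250 runs of consecutive members, 209 of them pairs. The longest run held 7 members over 1523 kb, at chr12:5049830-6573267. It began beside Atad2b, which encodes a bromodomain ATPase, and passed over the kelch-family gene Klhl29, with 29, 23 and 2 regions of any length at 0, 6 and 72 h. A run of 5 stretched over 1147 kb, at chr3:3016311-4163227, with 39, 38 and 5 regions at these times. Its first 4 members lay close together at chr3:3016311-3030434, and its last at chr3:4163001-4163227. The nuclear receptor gene Hnf4g, at chr3:3508030-3659800, lay between them, with no member in its locus. A further run of 4 lay before the run of 5, at chr3:3003825-3010716, with 16, 13 and 0 regions. The run of 4 and the first 4 members of the run of 5 lay in the first 100 kb of assembled sequence of chromosome 3. The 6 members nearest to Scaf8, which encodes a protein that binds RNA polymerase II, lay in that part of chromosome 17. Members made up 8 of 13 and 8 of 35 regions of at least 200 bp in these stretches. Masking of repeated sequence by the authors is not stated in the labels, and its part in these runs was not tested.

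The genes with the most members were found by the nearest gene end within 100 kb, which gave 2133 genes at least 1 member and 45 genes 3 or more. Adamts1, a secreted metalloprotease with thrombospondin motifs, led with 7 members among its 11 regions. Of these, 6 followed each other over 6.89 kb at chr16:85793002-85799894, with 0 h folds from 6.80 to 11.3 and 6 h folds from 5.27 to 13.6. The 0, 6 and 72 h lists had 11, 12 and 1 regions of any length in that stretch. The seventh member had a fold of 12.1 at 0 h and lay 192 bp from a 72 h region. At 6 h a region with a fold of 8.29 covered more of it than the edge of a neighbouring one with a fold of 145.

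Hspa5, which encodes the endoplasmic reticulum chaperone BiP, showed a similar layout. A run of 6 members covered 12.3 kb from inside Hspa5 into the overlapping span of Rabepk, at chr2:34773842-34786152, with folds from 4.54 to 9.07 at 0 h and from 3.77 to 8.29 at 6 h. The same lists had 22, 19 and 1 regions there. The highest region of the locus, at the lower end of Hspa5, was in all 3 lists, with folds of 153 at 0 h, 176 at 6 h and 224 at 72 h.

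Short distances to 72 h regions were also seen at other genes. Bahcc1, a chromatin protein gene with a BAH domain, had 5 members with 0 h folds from 5.29 to 9.83, all within 327 bp of a 72 h region. Rpl3, a large ribosomal subunit gene, had 4 members among 13 regions, with folds from 5.29 to 14.4 at 0 h. They lay 106 to 1064 bp from a 72 h region. Zfp462, a zinc finger gene, had 4 members from 615 to 4074 bp from a gene end and 181 to 2938 bp from a 72 h region. Their folds were from 9.07 to 12.9 at 0 h and from 8.29 to 12.8 at 6 h.

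The members at Grhl2 and those nearest to Atad2b and Thy1 lay farther from anything open at 72 h. The 4 members at Grhl2, an epithelial transcription factor gene, were all the regions of at least 200 bp in the gene and the 10 kb around it, with folds from 4.54 to 12.1 at 0 h and 72 h regions at 18616 to 41021 bp. The 4 members nearest to Atad2b had 0 h folds from 7.56 to 31.0 and lay 75309 to 77140 bp from a 72 h region. Thy1 encodes a surface glycoprotein of T cells and neurons. Members were 4 of the 5 regions nearest to it, but all lay outside the 10 kb around the gene. They were 18981 to 83530 bp from a gene end. Their folds were from 5.29 to 19.7 at 0 h and from 6.03 to 16.6 at 6 h. Their distances to a 72 h region were 7647 to 18756 bp. The kinase genes Sik3 and Fyn, the scaffold gene Kank1, the helicase gene Helz and Spata13 also had 4 members each. Their 0 h folds spanned 3.78 (Helz) to 21.9 (Spata13), and their distances to a 72 h region 6 bp (Fyn) to 34656 bp (Spata13). When regions were assigned to gene spans extended by 10 kb instead, 9 of the 15 leading genes were shared.

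The highest members were few. A 0 h fold of at least 50 was seen in 7 members. The highest, at chr11:101604543-101605731, had a fold of 123 at 0 h and 121 at 6 h. At chr12:88967259-88967717 the folds were 105 and 130, with a 72 h region 1716 bp away. No protein-coding gene end lay within 100 kb of it, and the nearest, of Nrxn3, was 244558 bp away. At chrX:135086987-135087571 the folds were 105 and 101, with a 72 h region only 135 bp away. The member at the promoter of Hspg2, the gene of the basement membrane proteoglycan perlecan shown above, had folds of 71.8 and 77.6 and lay 26860 bp from any 72 h region. A member inside Cdh17, an intestinal cadherin gene, had folds of 54.4 and 71.6, with the nearest 72 h region 22276 bp away. One in Flnc, the filamin C gene of muscle, had folds of 48.4 and 58.8 and lay 298 bp from a 72 h region. Another in Osbpl3, an oxysterol-binding protein gene, had folds of 47.6 and 55.8. The member nearest to Hjv, the hemojuvelin gene of iron metabolism, had folds of 47.6 at 0 h and 28.6 at 6 h. Heights at 0 h and 6 h thus stayed within 2-fold of each other at these 8 regions. The next in height at 0 h included the members nearest to Akr1c19, an aldo-keto reductase gene, with folds of 46.9 and 52.7, and to Tcf7, a T cell transcription factor gene, with 44.6 and 26.4.

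Gene lists of the lineage and of other cell types were then read against the background of all coding loci. A locus is a gene's span extended by 10 kb at both ends. In the loci of all protein-coding genes, 1917 of 38403 regions of at least 200 bp were members, a share of 4.99%. In the loci of the 292 list genes found in the annotation it was 44 of 1010. Loci of 22 myeloid transcription factor genes, including those of PU.1 and the C/EBP family, held 134 regions at 0 h and 1 member (0.746%, 0.0189 to 4.09). With 50 kb at both ends instead of 10 kb they held 5 members of 225 regions (2.22%, 0.725 to 5.11), against 5.33% of regions in all coding loci of that width, which the interval contains. The member within 10 kb was at Fos, an AP-1 subunit gene, with folds of 5.29 at 0 h and 4.52 at 6 h. Loci of secondary and tertiary granule genes held 0 members of 74 regions, an interval that reaches 4.86%, and those of mature neutrophil genes 1 of 51. With 50 kb the granule loci held 2 of 173 (1.16%, 0.140 to 4.11), below the 5.33%, and their regions had a median 0 h fold of 31.0. The mature neutrophil loci held 5 of 159 (3.14%, 1.03 to 7.19), an interval that contains the 5.33%. Housekeeping loci held 1 of 76 and cohesin and loop extrusion loci 1 of 44. For comparison, the neuronal loci held 7 of 42 (16.7%, 6.97 to 31.4), and their regions were lower at 0 h, with a median fold of 15.5 against 28.7 in all coding loci.

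Progenitor and stem cell loci held 9 members of 99 regions (9.09%, 4.24 to 16.6), with a median 0 h fold of 18.9 over their regions. The interval contains the background. Kit carried 2 of the 9. The member across its start had folds of 18.9 at 0 h and 18.1 at 6 h, and the second, 730 bp inside the gene, had folds of 10.6 and 9.80. These were the only regions of at least 200 bp in the Kit locus, where the 0, 6 and 72 h lists had 7, 5 and 0 regions of any length. The nearest 72 h region lay 114364 bp away. Bcl11a, a transcription factor gene of progenitors and lymphoid cells, had its only region of this length at a gene end as a member, with folds of 12.9 at 0 h and 12.1 at 6 h, and its locus held 7, 6 and 0 regions. Runx1, a main transcription factor gene of blood stem cells, had 2 members of 23 regions and 51, 54 and 58 regions of any length at 0, 6 and 72 h. Cdk6, a cell cycle kinase gene, had 2 of 14, with 52, 55 and 60 regions.

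**Figure D4:**
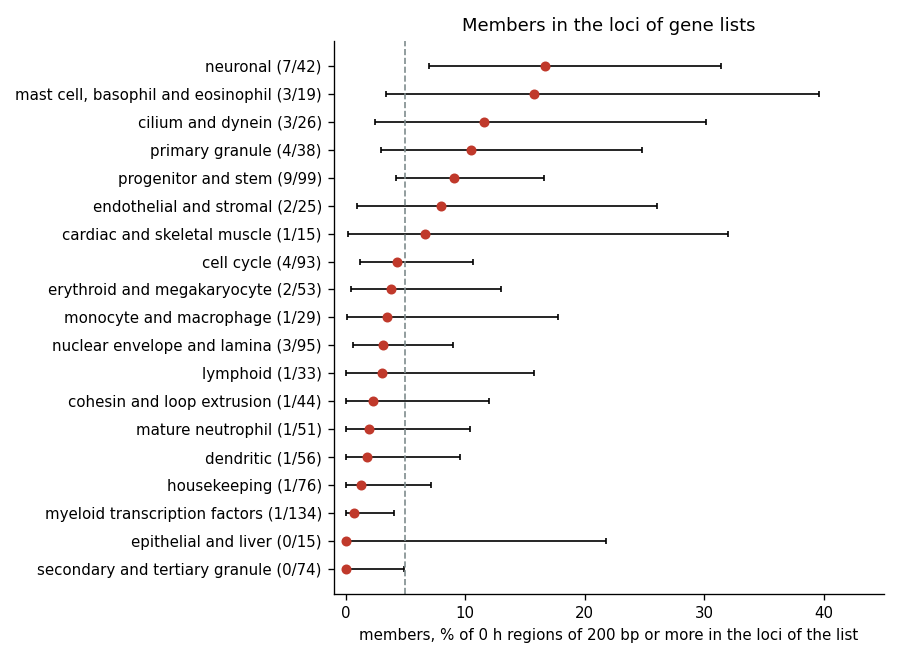
Percent of 0 h regions of at least 200 bp that are members in the loci (gene spans extended by 10 kb at both ends) of each gene list, as points with exact 95% intervals and counts in the labels. The dashed line marks 4.99% for all coding loci; the neuronal list is highest at 16.7%, and the secondary and tertiary granule list has 0 of 74.

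Primary granule loci held 4 members of 38 regions (10.5%, 2.94 to 24.8). A group of 3 lay around Prtn3 and the neighbouring Elane, which encode serine proteases made at the promyelocyte stage, and counted for both genes. Their folds were 21.9, 4.54 and 12.1 at 0 h and 17.3, 7.54 and 12.1 at 6 h. All lay within 275 bp of a 72 h region, and the Prtn3 locus held 27, 23 and 16 regions of any length at 0, 6 and 72 h.

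Among markers of other cell types, Grin2b, an NMDA receptor subunit gene of neurons, had all 3 of its regions of at least 200 bp as members. Their folds were 13.6, 15.1 and 13.6 at 0 h and 15.1, 9.80 and 12.1 at 6 h, and the locus held 15, 10 and 1 regions of any length at 0, 6 and 72 h. Map2, the gene of a neuronal microtubule protein, had its single region at a gene end as a member, with folds of 6.05 and 6.03 and the nearest 72 h region 327176 bp away. Pdgfrb, a receptor gene of stromal cells, had 1 member at a gene end among 5 regions, with folds of 12.9 and 18.8. Mast cell, basophil and eosinophil loci held 3 members of 19 regions (15.8%, 3.38 to 39.6), an interval that contains the background, and with 50 kb they held 4 of 54 (7.41%). The neuronal share was 12 of 78 (15.4%) with 50 kb. The remaining lists had 2 of 53 for erythroid and megakaryocyte genes, 1 of 29 for monocyte and macrophage, 1 of 33 for lymphoid, 1 of 56 for dendritic, 2 of 25 for endothelial and stromal and 0 of 15 for epithelial and liver genes. Muscle genes had 1 of 15, cilium and dynein genes 3 of 26, nuclear envelope and lamina genes 3 of 95 and cell cycle genes 4 of 93. With 50 kb, lymphoid loci held 8 of 107 (7.48%), epithelial and liver loci 1 of 53 (1.89%), muscle loci 1 of 42 (2.38%) and cohesin and loop extrusion loci 1 of 81 (1.23%). Cilium and dynein loci then held 8 of 62 (12.9%, 5.74 to 23.9), above the 5.33% of all coding loci of that width. Housekeeping loci held 2 of 222 (0.901%, 0.109 to 3.22), below the 5.33%. The median 0 h fold was 22.7 in these cilium and dynein loci and 31.4 in these housekeeping loci, against 26.5 over all regions of at least 200 bp. The part of height in these shares was not tested. Primary granule loci held 9 of 98 (9.18%) and progenitor and stem cell loci 13 of 166 (7.83%), with intervals that contain the 5.33%.

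In 19 gene loci with 2 or more regions of at least 200 bp, all of those regions were members, and these loci were picked for their values. The 19 count some shared regions more than once. The number of all loci with 2 or more such regions is not given here, so no share is stated. In 6 of them no region of any length was listed at 72 h. Beside Kit these were Necab1, with folds of 16.6 at 0 h and 21.1 at 6 h at both members, Clec2f, Ly6m and the neighbouring histone genes H2ac23 and H2bc23, which share both of their members. Msi2, which encodes an RNA-binding protein of blood stem cells, had 2 members with folds from 9.07 to 19.7 at 0 h and from 11.3 to 21.1 at 6 h, with 15, 20 and 4 regions of any length. Acvr1, a type I receptor gene for BMP and activin signals, had 2 with folds from 10.6 to 22.7 at 0 h, and its locus overlaps that of Upp2, which shares them. Rab38, a small GTPase gene of melanosomes, had 2 with folds from 28.0 to 28.7 at 0 h and from 18.1 to 30.1 at 6 h.

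Replication-dependent histone genes were a group picked after the values were seen. The 100 kb window with the most members, 9 of 42 regions, lay in their cluster at chr13:23500001-23600000, and 7 of the 9 were within 1 kb of a histone gene. Within 1 kb of the 63 histone genes, 17 of 89 regions of at least 200 bp were members (19.1%, 11.5 to 28.8), against 5.89% of all regions of this length. All 17 lay in the chromosome 13 cluster, at 18 of its 53 genes, and none lay within 1 kb of the 10 genes on chromosome 3. Beyond that limit on chromosome 3, members lay 1036 bp from H3c15 and 3809 bp from H2bc18. The highest overlapped H3c7, with folds of 46.1 at 0 h and 52.0 at 6 h, and the next lay at H2ac12 and H2bc12, with 31.0 and 33.2. Of the 17, 16 lay within 1 kb of a 72 h region. At the histone genes 141 regions of any length at 0 h covered 66433 bp, 142 at 6 h covered 64897 bp and 126 at 72 h covered 32108 bp. Their median length was 274 bp at 0 h, 268.5 bp at 6 h and 181.5 bp at 72 h, with median folds of 21.2, 25.6 and 15.6. Over the whole lists the median length was 130, 135 and 153 bp, and the covered length 34.1, 34.2 and 29.9 Mb. Of 135 regions at ribosomal protein genes, another highly transcribed group, 2 were members (1.48%, 0.180 to 5.25), and of 186 at tRNA genes 6 were (3.23%, 1.19 to 6.89).

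**Figure D5:**
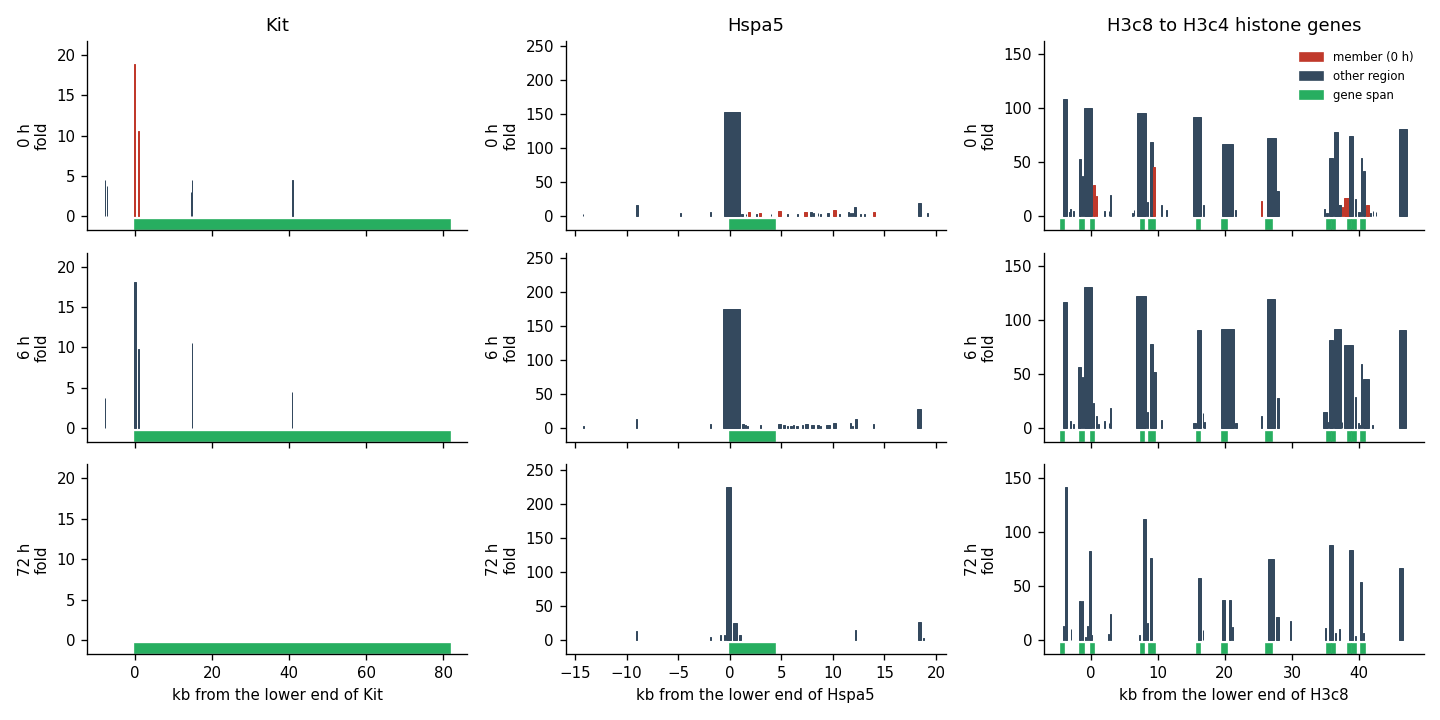
Accessible regions at Kit, Hspa5 and the histone genes from H3c8 to H3c4 (columns) at 0, 6 and 72 h (rows), drawn to scale in kb from the lower end of the first gene, with bar height as the fold in that list. Members are red in the 0 h row, other regions dark and gene spans green; Kit has no bar at 72 h, Hspa5 has its highest bar at all 3 times and fewer low bars along and beyond the gene at 72 h, and the histone gene bars are narrower at 72 h.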

How the data were processed

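The authors deposited 1 list of accessible regions per library, in mm10 coordinates. The submitters' processing notes name BWA 0.7.17, MACS2 2.2.7 and bedtools 2.30.0 among other tools. Not given in the sources used here were duplicate removal, fragment selection, shifting of read ends, caller options and read totals. Each deposited line holds a fold (ratio of summit to background), a −log10 p-value and −log10 q-value, and a score, as the authors' caller gave them. Each fold is the authors' own value for a region, relative to the background of its own list. Ranking and filtering used folds within a list. Folds given side by side for different times are descriptions, without a common scale across the lists.

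Regions were matched by 1 bp of overlap, with Python 3.11.15, numpy 2.4.6, pandas 2.3.3 and scipy 1.17.1, and the matching was tested on simulated intervals. Gene spans and promoter windows came from RefSeq tables of GRCm38.p6. Gene spans had no strand, so either gene end was used, with a limit of 1 kb. A locus is the span with 10 kb on each side. Genes were named by fixed rules: the 15 with the most members by nearest gene end within 100 kb, the nearest genes of the 10 highest members and of the 5 longest runs (predicted genes left out), and list genes with 2 or more members or 1 within 1 kb of an end. Not all genes that met them are described, and 1 is not reported here. The promoters with printed bases, among them those of Cdh15 and Cpm, were chosen after their values were seen. Loci made up of members and histone, tRNA and ribosomal protein genes were also added after their values were seen. Of 295 genes in 19 lists, 292 matched. The members and lists were chosen with earlier results of these data known. Alternatives changed the length limit, the overlap and the height limits. The Y chromosome was left out by the rule.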

Additional observations from a re-analysis of the deposited data

How the results depend on the processing

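No paired analysis was possible because each group held 1 library. With a minimum length of 150 bp there were 7896 members, with 12.3% near gene ends, a median 0 h fold of 7.56 and 30.3% next to another member. With 300 bp there were 495, with 18.4% near gene ends, 7.47% in gene-poor bins, a median fold of 10.6 and 10.5% next to another member. Counting a 72 h region within 250 bp as presence gave 11.5% near gene ends and 12.7% in gene-poor bins, and within 1000 bp it gave 1874 members, 7.63% and 14.8%. Requiring coverage of 50% of the member at 6 h gave 14.3% near gene ends and 18.1% next to another member. A 0 h −log10 q of at least 10 gave 1571 members, 12.5% near gene ends, a median fold of 12.1 and 15.5% next to another member. A fold of at least 10 at 0 h and 6 h gave 786 members, 13.4% near gene ends, 13.2% in gene-poor bins, a median fold of 15.1 and 10.2% next to another member. Gene ends within 2000 bp took in 22.3%. Assignment by gene span shared 9 of the 15 genes with the most members. An alternative chosen after seeing the data, in which the 6 h region must also lack a 72 h region, gave 2741 members. The cause of these shifts was not tested beyond the different regions that each setting lets in. Depth is unknown, and a low region missed at 72 h cannot be told apart from a closed one.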
